A study of Homo sapiens with 36 samples.

Results

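Neural bHLH factor genes were examined for PHF19, PRC2 and H3K27me3 in prostate cancer cells. These 9 genes, NEUROG1, NEUROG2, NEUROG3, NEUROD1, NEUROD2, ATOH1, OLIG1, OLIG2 and OLIG3, were chosen by name out of 20163 protein-coding genes of the hg19 (GRCh37) annotation. A gene was given the peaks and regions that overlapped, by at least 1 bp, its interval from 2.5 kb upstream of the start to the gene end. The ChIP-seq data came from DU145, a prostate cancer line established from a brain metastasis. Both groups of cells had been transduced with a lentiviral pLKO vector and selected with puromycin, and the vector carried either a control hairpin (shCTR) or hairpin #4 against PHF19L, the long isoform of PHF19 (shPHF19L#4). Each ChIP was made in 2 replicates of 1 cell line, and the depleted cells carried a single hairpin sequence. Peak lists of PHF19, EZH2 and SUZ12 in shCTR and of H3K27me3 and MTF2 in both conditions were used, 14 lists in all, with 5 tables of differential binding. Input values were used only as the PHF19 table gives them. PHF19, EZH2 and SUZ12 peak lists of shPHF19L#4 cells and RNA-seq were not analysed here.

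The basic helix-loop-helix (bHLH) factors of the neural lineage bind E-box sequences as dimers with the broadly expressed E proteins, and switch on programmes of neuronal or glial differentiation. ID proteins and the HES and HEY repressors oppose them. Outside the nervous system such developmental genes are typical targets of Polycomb repression, in which PRC2, with its catalytic subunit EZH2 and its core subunit SUZ12, trimethylates histone H3 at lysine 27 (H3K27me3), and the Polycomb-like proteins PHF19 and MTF2 associate with PRC2 and help bring it to CpG-rich DNA.

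In ChIP-seq, DNA bound by the protein or carrying the mark is pulled down with an antibody and sequenced. A peak is an interval in which MACS, run by the authors on every replicate separately, found the reads of the ChIP enriched over the control sample. No read totals came with the lists, so the depth is unknown. The number attached to a peak in the deposited lists is a MACS score, which grows as the P value of the peak falls, except that the PHF19 list of replicate 1 gives tags (reads) and the MTF2 lists of replicate 1 give positions only. Scores are not comparable between lists. Scores of 3100 or more mark P values at the limit of what the caller could write and were not ranked. The deposited DiffBind tables give, for each region, a log2 mean concentration of reads over both replicates of a condition, and they list only regions under a P value threshold of the authors, so absence from a table does not mean no change. Levels are given here as these log2 concentrations, and per kb of region where so stated. A log2 concentration that is not given per kb grows with the width of the region, and levels of the members are compared per kb only. Changes are the log2 concentration in shPHF19L#4 minus that in shCTR. The tables hold no value per replicate, so no error can be attached to a level or a change and neighbours in the order of levels cannot be told apart by their spread.

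The neurogenins, which start neuronal differentiation in progenitors, lay at chr5:134869972-134871654 (NEUROG1), chr4:113434672-113437336 (NEUROG2) and chr10:71331454-71333178 (NEUROG3, the neurogenin that is also required for pancreatic endocrine cells), each on the minus strand. The genes for the NeuroD factors, which act in differentiating neurons, lay at chr2:182533022-182545554 (NEUROD1) and chr17:37759789-37766030 (NEUROD2), also on the minus strand. ATOH1, the atonal homologue needed for inner ear hair cells, cerebellar granule neurons and secretory cells of the gut, lay at chr4:94749904-94752115 on the plus strand. OLIG1 and OLIG2, factors of the oligodendrocyte and motor neuron lineages, were neighbours on the plus strand at chr21:34442447-34444719 and chr21:34398243-34401504, and OLIG3, a factor of dorsal spinal cord progenitors, lay at chr6:137813336-137815531 on the minus strand. Distances are given from the start of the canonical transcript, which lay 310 bp inside the annotated start of NEUROD1 and 1857 bp inside that of NEUROD2, and at the annotated start of the other 7.

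The DNA at these genes is shown for a few members because the position of the PHF19 signal relative to the start site differed between them. PHF19 covered the start site of NEUROG2, lay wholly upstream of that of OLIG3, and was not called at ATOH1. Each line gives 300 bases of GRCh37, for a start site the 250 bases before the first base of the transcript and the 50 that follow, 5′ to 3′ on the strand of the gene, and capitals mark the dinucleotide CG.
NEUROG2 start site (chr4:113437287-113437586, minus strand): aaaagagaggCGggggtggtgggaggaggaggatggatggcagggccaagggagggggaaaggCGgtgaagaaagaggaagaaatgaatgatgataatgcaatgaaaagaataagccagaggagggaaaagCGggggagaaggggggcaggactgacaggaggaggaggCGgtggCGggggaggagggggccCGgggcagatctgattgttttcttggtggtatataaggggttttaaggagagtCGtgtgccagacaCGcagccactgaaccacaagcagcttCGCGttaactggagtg
OLIG3 start site (chr6:137815482-137815781, minus strand): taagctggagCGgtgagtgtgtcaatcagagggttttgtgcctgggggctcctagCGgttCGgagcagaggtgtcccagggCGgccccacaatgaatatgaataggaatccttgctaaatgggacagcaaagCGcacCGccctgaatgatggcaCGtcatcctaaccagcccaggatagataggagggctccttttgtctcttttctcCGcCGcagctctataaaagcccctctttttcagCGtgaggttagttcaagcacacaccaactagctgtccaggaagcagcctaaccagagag
OLIG3 PHF19 region, centre (chr6:137818821-137819120, minus strand): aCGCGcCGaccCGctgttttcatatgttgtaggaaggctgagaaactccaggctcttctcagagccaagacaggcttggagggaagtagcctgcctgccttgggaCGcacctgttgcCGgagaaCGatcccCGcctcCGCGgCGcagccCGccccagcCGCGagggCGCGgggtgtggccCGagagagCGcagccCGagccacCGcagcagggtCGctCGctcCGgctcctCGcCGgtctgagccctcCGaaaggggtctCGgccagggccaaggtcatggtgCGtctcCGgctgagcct
ATOH1 start site (chr4:94749654-94749953, plus strand): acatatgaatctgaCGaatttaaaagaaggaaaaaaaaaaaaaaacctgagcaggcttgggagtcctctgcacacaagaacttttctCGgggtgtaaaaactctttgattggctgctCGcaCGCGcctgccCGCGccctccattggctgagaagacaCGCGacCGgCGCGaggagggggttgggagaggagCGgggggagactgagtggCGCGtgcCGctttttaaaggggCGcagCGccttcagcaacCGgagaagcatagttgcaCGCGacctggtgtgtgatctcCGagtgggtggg

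**Figure D1:**
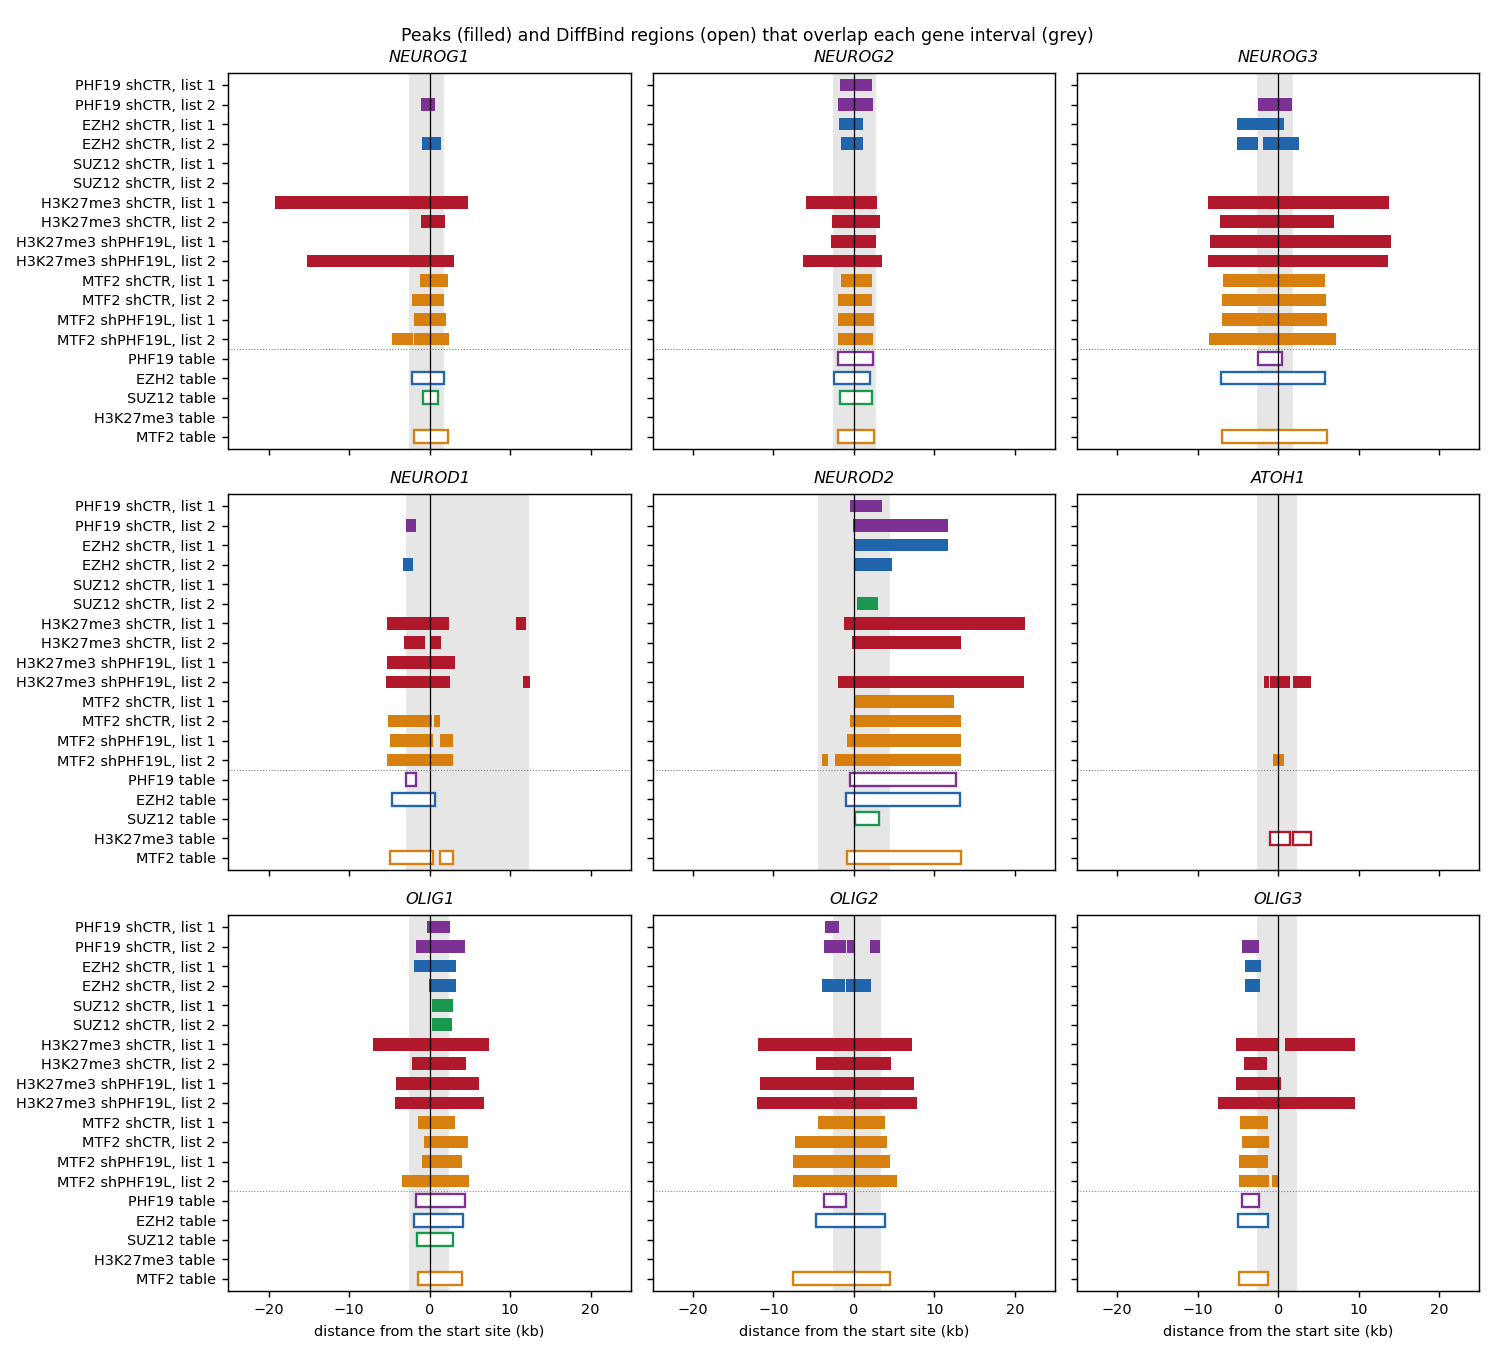
Peaks (filled bars, 1 row per list) and regions of the DiffBind tables (open bars) that overlap the interval of each gene (grey), by distance in kb from the start of the canonical transcript, with transcription to the right. The table regions of PHF19, EZH2 and MTF2 lie upstream of the start of OLIG3, and ATOH1 is empty in the 10 shCTR lists. The PHF19 table region of NEUROD2 ends 12.7 kb past its start, and the PHF19 peaks shown end at 3.44 kb in replicate 1 and 11.7 kb in replicate 2.

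PHF19 was called in both replicates at NEUROG2, NEUROD2, OLIG1 and OLIG2, which was 4 of the 9 genes against 3.60% of all protein-coding genes. The replicate 1 list had a peak at the same 4 genes (3.78% of all genes), and the longer replicate 2 list had one at 8 (23.4%). The gene without a peak in either was ATOH1. In replicate 1 the peaks of OLIG1, NEUROG2 and NEUROD2 held 279, 168 and 153 tags and ranked 38, 104 and 128 of 1072 peaks, whereas OLIG2 had 49 tags and ranked 576. The same 3 genes led in replicate 2, with scores of 2850, 2021 and 1762 for OLIG1, NEUROD2 and NEUROG2. The other 5 genes with a peak in that list had highest scores from 104 at NEUROD1 to 304 at NEUROG3. The count of 4 genes became 8 without replicate 1 and 2 when the midpoint of a peak had to lie inside the interval of the gene. OLIG1, NEUROD2 and NEUROG2 thus stood apart from the rest in both replicates, on different scales.

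In the table of PHF19 against input, 7 of the 9 genes had a region higher in ChIP than in input (4.64% of all genes), and NEUROG1 and ATOH1 had none. All 1245 listed regions were higher in ChIP, so the direction is that of the table as a whole. The exact boundaries of a listed region were those of 871 replicate 2 peaks and 65 replicate 1 peaks. NEUROG3, NEUROD1 and OLIG3 had a region in the table but no PHF19 peak in replicate 1. At OLIG1 the log2 concentration was 9.10 in the PHF19 ChIP and 6.32 in input over a region of 6.05 kb, a log2 difference of 2.78, which lay at the 93.3 percentile of the 1245 listed regions. NEUROG2 had 8.05 against 5.44, a log2 difference of 2.61 (91.6 percentile). NEUROD2 had 9.58 against 7.56 over 13.3 kb, a log2 difference of 2.02 (75.7 percentile). At these 3 genes the region covered the start site and most or all of the transcript, 100% at OLIG1 and NEUROD2 and 87.0% at NEUROG2. NEUROG3 differed, with a log2 difference of 1.21 and a region from 2.47 kb upstream to 0.429 kb downstream of the start, 24.9% of the transcript.

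The PHF19 regions of NEUROD1, OLIG2 and OLIG3 did not reach the start site. They ran from 2.88 to 1.70 kb upstream at NEUROD1, from 3.71 to 1.02 kb upstream at OLIG2 and from 4.55 to 2.33 kb upstream at OLIG3, with log2 differences over input of 1.82, 1.00 and 1.39. At OLIG2 the replicate 2 list held 2 further, weaker PHF19 peaks that were not in the table, 1 over the start site with a score of 85.2 and 1 at the end of the gene with a score of 63.0. The region of OLIG2 lay over an annotated long non-coding RNA gene on the other strand, that of NEUROD1 over another such gene, and that of OLIG3 over no annotated gene. Per kb of region, the PHF19 log2 concentration in shCTR was 6.50 at OLIG1, 5.97 at NEUROG2, 5.85 at NEUROD2, 5.17 at NEUROG3, 5.08 at NEUROD1, 4.89 at OLIG2 and 4.87 at OLIG3, against a median of 5.24 over all listed regions. The median of the 7 genes was 5.17, and 3 of them were above the median of all listed regions. By the log2 difference over input their median was 1.82, against 1.58 over all listed regions, and 4 of the 7 were above it, so the measures placed the list differently.

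EZH2, the methyltransferase of PRC2, was called in both shCTR replicates at NEUROG2, NEUROG3, NEUROD2, OLIG1 and OLIG3, 5 of the 9 genes against 2.32% of all genes. Replicate 1 had a peak at these 5 (3.27% of all genes) and replicate 2 at 8 (5.04%), the exception being ATOH1, so the count without replicate 1 was 8. It was 3 with the midpoint of a peak inside the interval, 3 with at least 50% of the peak or interval covered, and 3 with a MACS score of at least 100. Scores in replicate 1 were 271.5 at OLIG1, 173 at NEUROG2, 137 at NEUROD2, 80.9 at NEUROG3 and 54.9 at OLIG3. In replicate 2 they were 984 at NEUROD2, 853 at OLIG1, 317 at NEUROG3, 273 at NEUROG2, 220 at OLIG2, 214 at NEUROG1, 133 at OLIG3 and 52.4 at NEUROD1. NEUROD2 and OLIG1 ranked 57 and 68 of the 1236 peaks of replicate 2, and the peak of NEUROD1 ranked 1194.

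SUZ12 was called at fewer of these genes. OLIG1 was the only member with a SUZ12 peak in both shCTR replicates (1 of 9, 0.268% of all genes), with scores of 57.6 and 70.1, both in the lower part of their lists (28.4 and 31.5 percentile). No other member had a SUZ12 peak in replicate 1 (1 of 9, 1.10% of all genes), and NEUROD2 had one in replicate 2, with a score of 229 (2 of 9, 0.972%), so the count was 2 without replicate 1 and 0 when peaks with a score under 100 were left out. The OLIG1 peaks began 0.266 and 0.251 kb downstream of the start site and ended at 2.91 and 2.75 kb. The SUZ12 lists, of 1523 peaks in replicate 1 and 232 in replicate 2, shared few genes, since 54 of the 364 protein-coding genes with a peak in either list had one in both (14.8%).

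In shCTR cells, H3K27me3 was called in both replicates at 8 of the 9 genes, against 13.1% of all genes, and at the same 8 in each replicate alone (19.6% of all genes in replicate 1 and 14.8% in replicate 2). ATOH1 had no H3K27me3 peak in either. The count of 8 became 4 when the midpoint of a peak had to lie inside the interval of the gene. The peaks of replicate 1 had lengths of 24.0 kb at NEUROG1, 22.5 kb at NEUROG3, 22.4 kb at NEUROD2, 19.1 kb at OLIG2 and 14.3 kb at OLIG1, against 2.98, 14.2, 13.5, 9.32 and 6.68 kb in replicate 2. At the other 3 genes the longest peak of replicate 1 was shorter, with 8.90 kb at NEUROG2, 8.71 kb at OLIG3 and 7.71 kb at NEUROD1. Scores in replicate 1 were highest at NEUROD2, with 2168 (99.8 percentile of the list), and at NEUROG3, with 1224, and lowest at NEUROG1, with 381.5 (86.7 percentile). In replicate 2 NEUROG3 had 1909, NEUROD2 1667 and OLIG1 1552, and NEUROD1 was lowest with 263 (86.4 percentile). NEUROG3 and NEUROD2 thus had the highest H3K27me3 scores of these genes in both shCTR replicates.

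In shPHF19L#4 cells the H3K27me3 lists of the replicates differed. Replicate 2 had a peak at 9 of the 9 genes (29.0% of all genes), replicate 1 at 6 (19.2%), and both had one at 6 (18.7%). The genes without a peak in replicate 1 were NEUROG1, NEUROD2 and ATOH1. In shCTR replicate 1, NEUROG1 and NEUROD2 had peaks of 24.0 and 22.4 kb, which covered 100% and 63.9% of their intervals, and in shPHF19L#4 replicate 2 they had peaks of 18.3 and 23.1 kb with scores of 3100. The gaps of that list were not limited to these genes, since 25 of 155 shCTR replicate 1 peaks of at least 20 kb (16.1%), that of NEUROD2 included, were overlapped by no peak of shPHF19L#4 replicate 1. That of NEUROG1 was overlapped by 1 such peak, of 2.48 kb and outside the interval of the gene, and is not among the 25. Of the protein-coding genes with a peak in shCTR, 14.1% had none in shPHF19L#4 in replicate 1, and 1.28% in replicate 2. The cause of these gaps was not tested, and no loss of H3K27me3 was read from them.

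At the other 6 genes, H3K27me3 was present in every list. Scores in replicate 1 were 955 in shCTR and 1111 in shPHF19L#4 at NEUROG2, 584 and 1616 at OLIG1, 531 and 597 at OLIG2, 1224 and 802 at NEUROG3, 876 and 829 at NEUROD1, and 550 and 228 at OLIG3. They were higher in shPHF19L#4 at 3 genes and lower at 3, and lists of unknown depth do not allow the scores to be compared as levels. In shPHF19L#4 replicate 2, the score reached 3100 or more at 8 of the 9 genes, so they could not be ranked there.

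ATOH1 had a peak or region in the fewest of the 14 lists and 5 tables among the 9 genes, 3 of 19. It had no peak in any of the 10 shCTR lists, and in shPHF19L#4 it had peaks in replicate 2 alone, 3 of H3K27me3 with scores of 50.6, 307 and 433 and 1 of MTF2 with a score of 151. It was also the only member in the H3K27me3 table (1 of 9, 3.53% of all genes with a higher region). Its region over the start site had a log2 concentration of 5.56 in shCTR and 6.80 in shPHF19L#4, and the one that began 1.82 kb downstream had 4.99 and 6.64. The changes of 1.24 and 1.65 lay at the 67.8 and 93.5 percentiles of the 1049 listed regions, and minus the median of the table they were 0.11 and 0.52. Both regions have the boundaries of H3K27me3 peaks of shPHF19L#4 replicate 2, and no shCTR list has a peak there. A higher value in shPHF19L#4 was thus favoured by the way they came to be listed, and nothing is concluded from its sign. No H3K27me3 value remained for ATOH1 under the low-value filter. The levels per kb in shCTR, 4.21 and 3.84, were below the median of 4.48 over the listed regions. Replicate 1 had no H3K27me3 peak at ATOH1 in either condition, so the peak lists show this difference in 1 replicate of 2. The 8 members with H3K27me3 in both shCTR replicates were not in the table.

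MTF2, the Polycomb-like protein related to PHF19, was called at nearly all of these genes. In shCTR both replicates had a peak at 7 of the 9 genes (5.62% of all genes), with NEUROD1 and ATOH1 missing. In shPHF19L#4 both had one at 8 (10.2%), with ATOH1 missing. By replicate the counts were 7 in shCTR (5.86% of all genes) and 8 in shPHF19L#4 (10.5%) for replicate 1, and 8 (49.5%) and 9 (51.0%) for replicate 2. The replicate 2 lists marked about as many of all genes as not, so a peak in them alone separates these genes little from others. NEUROD1 was the gene gained in replicate 1, with peaks of 5.27 and 1.63 kb in shPHF19L#4, and in replicate 2 it already had an MTF2 peak with a score of 1013 in shCTR. In shCTR replicate 2 the scores of NEUROG2, NEUROG3, NEUROD2, OLIG1 and OLIG2 were at 3100 or more, and those of NEUROG1 and OLIG3 were 2692 and 1544.

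In the tables that compare the conditions, 8 of the 9 genes had an EZH2 region higher in shPHF19L#4 (9.54% of all genes), 8 had such an MTF2 region (9.01%) and 4 had such a SUZ12 region (2.44%), although against the medians of the tables the changes of 6, 5 and 4 of them, in that order, fell below 0. The exception for EZH2 and MTF2 was ATOH1, and the 4 genes with a SUZ12 region were NEUROG1, NEUROG2, NEUROD2 and OLIG1. None of the regions of these genes was listed as lower before that subtraction. Nearly every listed region was higher as well, 2407 of 2408 for EZH2, 508 of 508 for SUZ12 and 2539 of 2546 for MTF2, so the direction is that of the tables as a whole. The exact boundaries of a listed MTF2 region were those of 2093 shPHF19L#4 replicate 1 peaks, against 50 of shCTR replicate 1. The MTF2 regions of NEUROG2, NEUROG3, NEUROD1, NEUROD2 and OLIG2 were of the first kind. A higher MTF2 value in shPHF19L#4 may be favoured by such listing, and nothing is concluded from its sign.

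The EZH2 log2 concentration of NEUROD2 was 9.58 in shCTR and 10.73 in shPHF19L#4, the change of 1.15 being equal to a ratio of 2.22. At NEUROG1 it was 6.99 and 8.22, and at OLIG1 8.36 and 9.12. Over the 8 genes the EZH2 change ran from 0.76 at OLIG1 to 1.23 at NEUROG1, with a median of 1.05, which turned to -0.11 when the median of all listed EZH2 regions, 1.16, was taken off. By that measure 2 genes, NEUROG1 and OLIG3, were above the median of the table and 6 were below it. Against that median the EZH2 changes ran from -0.40 at OLIG1 (10.0 percentile of the listed regions) to 0.07 at NEUROG1 (60.4 percentile). Their sign thus depends on the subtraction at 6 of the 8 genes.

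The MTF2 log2 concentration was 11.21 in shCTR and 12.08 in shPHF19L#4 at NEUROD2, 10.21 and 10.96 at NEUROG3, and 8.30 and 9.33 at OLIG3. The MTF2 change ran from 0.51 at OLIG1 to 1.03 at OLIG3, with a median of 0.79, which turned to -0.08 when the median of all listed MTF2 regions, 0.87, was taken off. NEUROD1 and OLIG3 were above that median, NEUROD2 was at it, and the other 5 were below it. The SUZ12 change was 0.95 at NEUROG2, 0.92 at NEUROD2, 0.83 at NEUROG1 and 0.52 at OLIG1, with a median of 0.88, which turned to -0.08 against the median of 0.96 of all listed SUZ12 regions, and each of the 4 was below it.

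**Figure D2:**
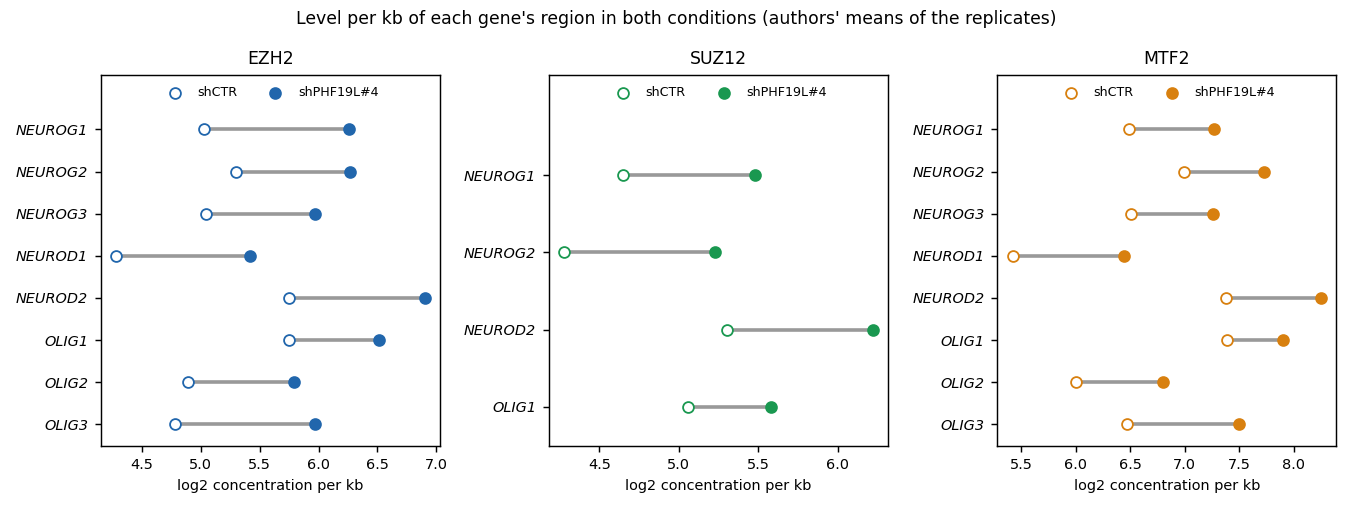
Log2 concentration per kb of the EZH2, SUZ12 and MTF2 region of each gene in shCTR (open) and shPHF19L#4 (filled), as the authors' means of both replicates with no error available. EZH2 is higher in shPHF19L#4 at each of the 8 genes listed, by 0.76 at OLIG1 to 1.23 at NEUROG1, although 6 of the 8 changes turn negative against the median of the table.

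Levels per kb put the same genes at the top of the EZH2 and MTF2 tables. For EZH2 in shCTR they were 5.75 at NEUROD2 and OLIG1, 5.30 at NEUROG2, 5.04 at NEUROG3, 5.03 at NEUROG1, 4.89 at OLIG2, 4.78 at OLIG3 and 4.28 at NEUROD1, with a median of 5.04 against 4.52 over all listed regions. NEUROD2 and OLIG1 lay at the 97.6 and 97.5 percentiles. For MTF2 in shCTR they were 7.39 at OLIG1, 7.38 at NEUROD2, 6.99 at NEUROG2, 6.51 at NEUROG3, 6.49 at NEUROG1, 6.47 at OLIG3, 6.00 at OLIG2 and 5.42 at NEUROD1, with a median of 6.50 against 5.94. NEUROD1 was the only member below the median of all listed regions in both tables. For SUZ12 in shCTR the levels per kb were 5.30 at NEUROD2, 5.06 at OLIG1, 4.65 at NEUROG1 and 4.28 at NEUROG2, against a median of 4.57. The regions of the members were wide, with a median of 5716 bp for EZH2 and 5378 bp for MTF2, against 3063 and 2842 bp over all listed regions.

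Of these genes, OLIG1 had the largest PHF19 difference over input and the smallest EZH2, SUZ12 and MTF2 changes, which turn to -0.40, -0.44 and -0.36 against the medians of the tables. Its changes of 0.76 for EZH2, 0.52 for SUZ12 and 0.51 for MTF2 lay at the 10.0, 0.984 and 4.63 percentiles of the listed regions, and the ratios they correspond to were 1.69, 1.43 and 1.42. Its neighbour OLIG2, with the smallest PHF19 difference of the 7 genes, had changes of 0.90 for EZH2 and 0.80 for MTF2 (19.7 and 37.9 percentiles). NEUROG2, next to OLIG1 in PHF19, had 0.97 for EZH2 and 0.74 for MTF2 (26.2 and 27.8 percentiles). Over the 7 members with a region in both tables, the rank correlation (Spearman's rho) of the PHF19 difference with the change was -0.07 for EZH2 and -0.46 for MTF2, with Pearson's r of -0.28 and -0.52. Without OLIG1, left out after its values were seen, rho was 0.49 for EZH2 and -0.14 for MTF2, with r of 0.24 and -0.11, over 6 genes, so the sign for EZH2 and the size for MTF2 rested on that gene. Over all protein-coding genes with a region in both tables, each pair of regions counted once, rho was -0.32 and r was -0.36 for EZH2 (728 pairs), -0.29 and -0.32 for SUZ12 (340 pairs) and -0.34 and -0.35 for MTF2 (702 pairs). These describe regions of 1 cell line that passed the thresholds of both tables and are not independent replicates.

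**Figure D3:**
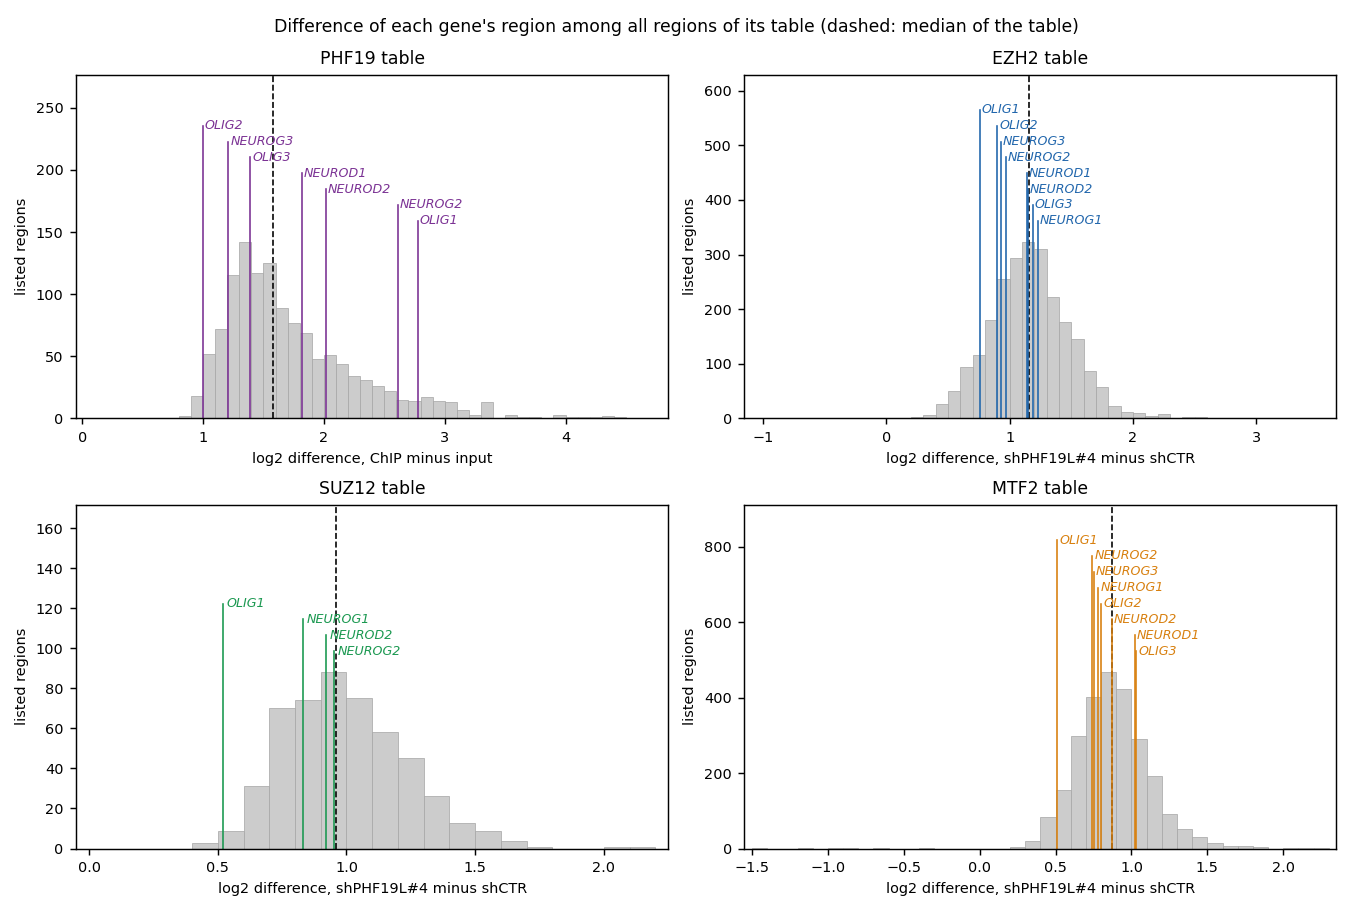
Histograms of the log2 difference over all regions of the PHF19 table (ChIP minus input) and of the EZH2, SUZ12 and MTF2 tables (shPHF19L#4 minus shCTR), with the median dashed and the region of each gene marked. OLIG1 is farthest right among the genes for PHF19, at 2.78, and farthest left for EZH2, SUZ12 and MTF2, at 0.76, 0.52 and 0.51, below the median of each of these 3 tables.

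Some of these regions are shared with other genes, and the signal cannot be assigned to one of them. The EZH2, SUZ12 and MTF2 regions of NEUROG1 also overlapped SLC25A48, a gene of the mitochondrial carrier family, and those of NEUROD1 for EZH2 and MTF2 overlapped CERKL, a ceramide kinase-like gene. Long non-coding RNA genes were overlapped by every listed region of NEUROG1 (ENSG00000250167), NEUROG2 (NEUROG2-AS1), NEUROG3 (ENSG00000236154), and OLIG1 and OLIG2 (ENSG00000227757 for both), and by the PHF19 and EZH2 regions of NEUROD1 and the MTF2 region over its start site (ENSG00000234595). The MTF2 region of OLIG2 also overlapped C21orf62-AS1. The regions of NEUROD2 overlapped no other annotated gene, and for PHF19, EZH2 and MTF2 they ran from within 1.01 kb upstream of the start site over the whole transcript to 12.7, 13.2 and 13.3 kb downstream. The shCTR peaks over its interval differed between the replicates. They ended 3.44 and 11.7 kb downstream for PHF19, and 11.8 and 4.75 kb for EZH2, in replicates 1 and 2. For OLIG3 the EZH2 and MTF2 regions, like that of PHF19, ended upstream of the start site, at 1.32 kb, whereas the extent of H3K27me3 at this gene differed between the lists. H3K27me3 peaks covered 83.4% and 24.1% of its interval in shCTR replicates 1 and 2, the latter ending 1.37 kb upstream of the start site, and 61.9% and 99.7% in shPHF19L#4.

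The 9 start sites lay in CpG-rich surroundings, ATOH1 included. In the 5 kb around the start site (2.5 kb to each side) CG occurred 70.0 times per kb at OLIG2, 53.2 at NEUROD2, 53.0 at NEUROG2 and OLIG1, 47.0 at OLIG3, 43.2 at NEUROG1, 42.4 at NEUROG3, 41.8 at NEUROD1 and 41.0 at ATOH1, against a median of 29.0 over all protein-coding genes. ATOH1, with the lowest value of the 9, was at the 79.2 percentile and OLIG2 at the 98.7 percentile. The 300 bases at the start site, given for 8 of the 9 genes, put them in another order. NEUROG2 and OLIG3 had 10 CG each (27.5 percentile), although PHF19 covered the start site of the former, ATOH1 had 22 and NEUROG1 had 35, against a median of 23. Of the 3 PHF19 regions that lay upstream of the start, the 300 bases at the centre held 29 CG at OLIG3, more than the 10 at its start site, but 12 at NEUROD1 and 20 at OLIG2, fewer than the 31 and 30 at theirs.

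The trinucleotides GCG and CGC (GCG on both strands, overlapping matches and those within a longer CG run counted) occurred 32 times in the 300 bases of NEUROD1 (84.7 percentile), 23 times at ATOH1, 9 times at OLIG3 and 8 times at NEUROG2 (31.6 percentile), with a median of 17 and at least 1 match in 92.8% of all protein-coding genes. Within the PHF19 table the CG density of the regions of these genes was ordinary, from 35.9 per kb at NEUROG3 (27.9 percentile) to 60.8 at NEUROG2 (66.3 percentile), around the median of 51.4. A match of letters is a description of the sequence and says nothing of binding.

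**Figure D4:**
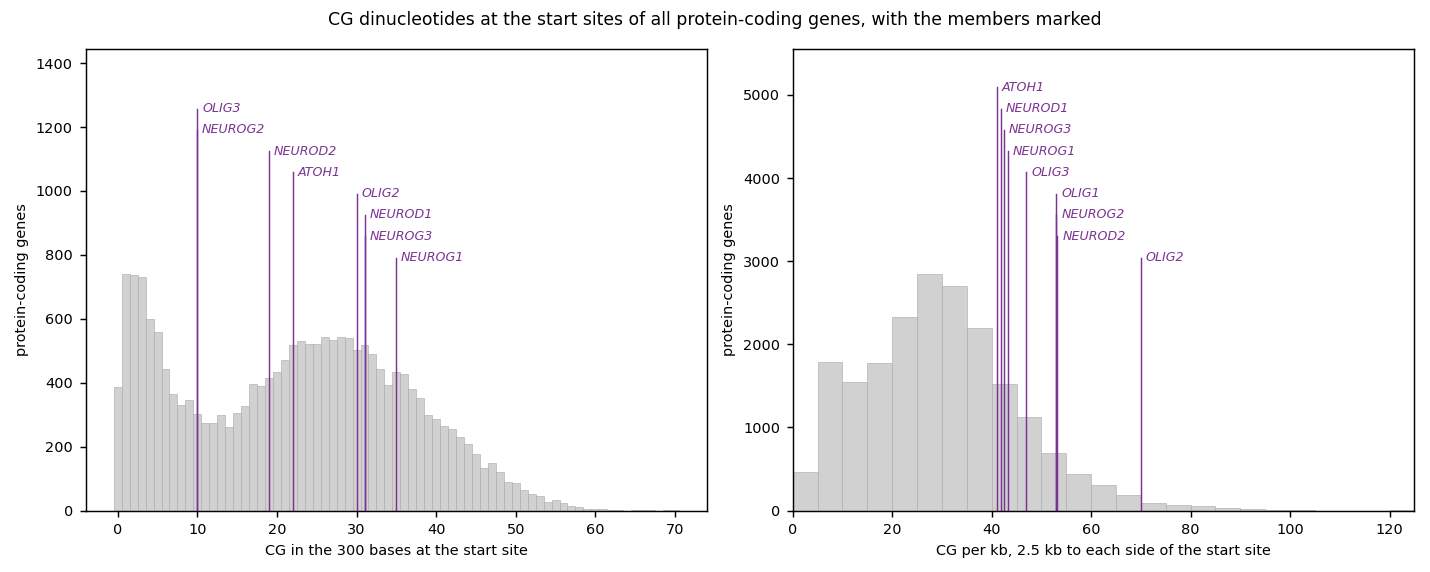
Number of CG in the 300 bases at the start site (left) and CG per kb in the 5 kb around it (right), as histograms over 20163 protein-coding genes with 8 members marked on the left and 9 on the right. In the wider window the 9 genes run from 41.0 per kb at ATOH1 to 70.0 at OLIG2, above the median of 29.0, whereas in the 300 bases NEUROG2 and OLIG3 have 10.

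Other genes of the bHLH network were counted in the same way. Of 13 other neural bHLH genes, none had PHF19, EZH2 or SUZ12 in both shCTR replicates or a region in the PHF19 table, 5 had H3K27me3 in both shCTR replicates and 9 in both shPHF19L#4 replicates, against 13.1% and 18.7% of all genes. MTF2 was in both replicates at 1 of them in shCTR and at 6 in shPHF19L#4, against 5.62% and 10.2% of all genes. An EZH2 region listed as higher was found at 6 (9.54% of all genes), such an MTF2 region at 6 (9.01%) and such an H3K27me3 region at 3 (3.53%). The median EZH2 change was 1.08, which turned to -0.08 against the median of the table, the median MTF2 change was 0.83, which turned to -0.04, and the median H3K27me3 change was 1.13, equal to the median of its table. Of the 3 E proteins, the partners of the neural factors, TCF4 alone (named after its values were seen) had H3K27me3 and MTF2 in both replicates of each condition. The shares of all genes are those given above. They were not matched for gene length, although the interval runs to the gene end and a longer gene meets a peak more readily. TCF4 also had H3K27me3 and MTF2 regions listed as higher (3.53% and 9.01% of all genes), of 720 and 1538 bp. The changes were 1.56 and 0.64, of which the latter turned to -0.23 against the median of its table. None of the 3 E proteins had PHF19 in both shCTR replicates or a region in the PHF19 table.

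Of the 4 ID inhibitors, ID4 alone had a PHF19 region (4.64% of all genes), with a log2 difference over input of 1.40. It also had EZH2 and MTF2 regions listed as higher (9.54% and 9.01% of all genes). The changes were 1.25 and 0.94, which stayed above 0 against the medians of the tables. Of the 10 HES and HEY repressors, 4 had a PHF19 region, against 4.64% of all genes. The log2 difference over input was 2.85 at HEY1, 2.40 at HEY2, 1.61 at HES3 and 1.21 at HES2, and the first of these was close to that of OLIG1. HEY1 had no region in the EZH2 or MTF2 tables. It did have EZH2 peaks in both shCTR replicates, and H3K27me3 and MTF2 peaks in both replicates of each condition. In both shCTR replicates, 3 of the 10 repressors had PHF19 and 3 had EZH2 (3.60% and 2.32% of all genes). There, 4 had H3K27me3 and 4 had MTF2 (13.1% and 5.62%). HEY2, HES3 and HES2 had EZH2 changes of 1.09, 1.21 and 1.25, of which that of HEY2 turned to below 0 against the median of the table. Of the 15 bHLH factors of muscle and mesoderm, HAND1 alone had a PHF19 region (4.64% of all genes). HAND1, a factor of heart and extraembryonic development, had a log2 difference of 2.09 there. Its EZH2, SUZ12 and MTF2 changes of 0.91, 0.80 and 0.66 were each below the medians of the tables. Of 8 housekeeping and epithelial genes used as controls, none had H3K27me3, PHF19, EZH2 or SUZ12 in both replicate lists of a condition. CDH1 (E-cadherin, named after its values were seen) was the 1 of 8 with MTF2 in both, in shPHF19L#4 (10.2% of all genes). It had an EZH2 and an MTF2 region listed as higher (9.54% and 9.01% of all genes). The changes were 1.45 and 0.56, of which the latter turned to -0.31 against the median of the table.

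**Figure D5:**
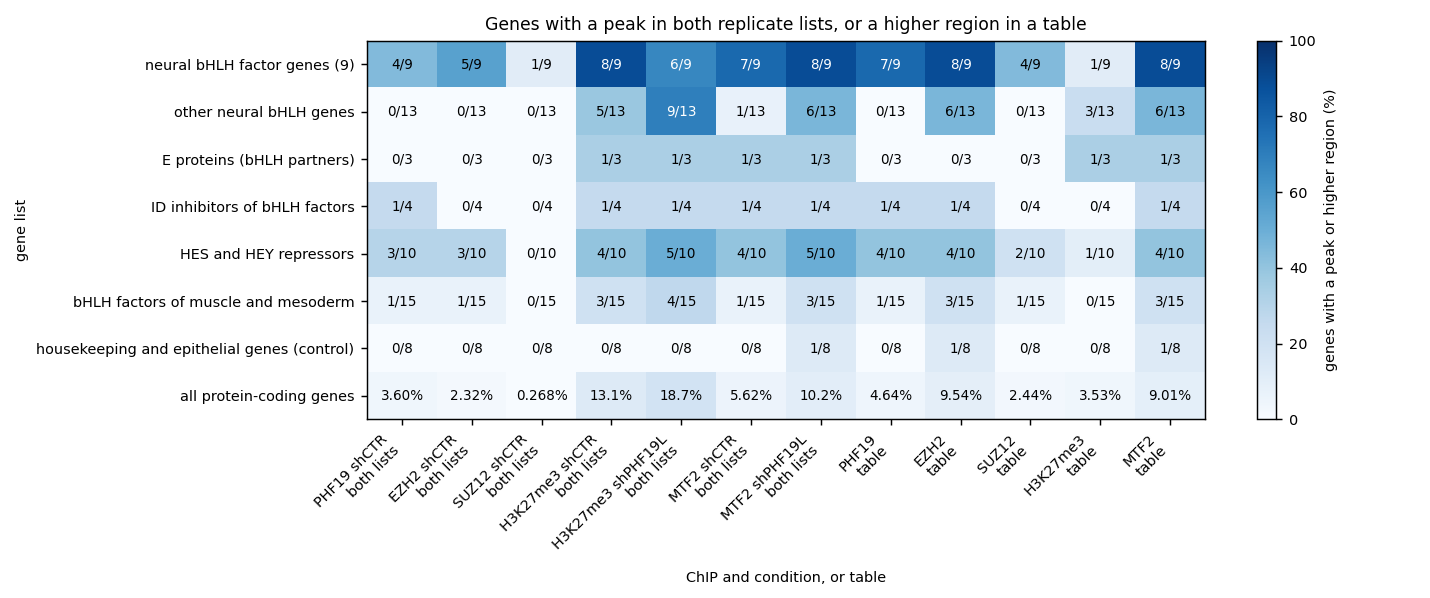
Number of genes of each list with a peak in both replicate lists of a ChIP and condition, or with a higher region in a table (higher than input for PHF19, higher in shPHF19L#4 for the rest, a direction that turns for 6 of 8 EZH2, 4 of 4 SUZ12 and 5 of 8 MTF2 members against the table median), with colour for the percentage of the list and the bottom row for all protein-coding genes. The neural bHLH factor genes have 8 of 9 with H3K27me3 in shCTR, against 5 of 13 other neural bHLH genes and 13.1% of all genes.

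Genes with the most similar pattern were taken from other chromosomes. They were those that matched in most of the 19 yes or no values (14 lists and 5 tables), with ties broken by the distance between log2 concentrations over those of the PHF19, EZH2, SUZ12 and MTF2 tables in which the member has a region. These log2 concentrations were not taken per kb, so a distance also holds differences in the width of the regions. For OLIG1, present in 18 of the 19, the nearest was BMP4, a secreted growth factor (19 of 19 matching, distance 1.02 over 8 values), among 35 tied genes on other chromosomes. For NEUROG2 it was APCDD1, an inhibitor of Wnt signalling (19 of 19, distance 0.53 over 8 values), among 105 tied genes. For NEUROD2 the nearest, AGAP2, was farther off (19 of 19, distance 4.81 over 8 values), among 2 tied genes. NEUROG3 was nearest to UNCX (2.08 over 6 values), NEUROD1 to SLC6A3 (1.09), OLIG2 to DACT1 (1.34) and OLIG3 to JAKMIP3 (0.91), each with 19 of 19 matching and over 6 values. For NEUROG1 no gene matched in all 19, and ZNF469 matched in 18 with a distance of 0.39 over 6 values. ATOH1 has regions in the H3K27me3 table alone, which was not used for the distance, and 13 other genes had its pattern of 3 of 19.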

How the data were processed

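ChIP-seq files of DU145 cells were used as the authors deposited them. The authors mapped reads with Bowtie to hg19, or to hg19 and dm3 where fly chromatin had been added, kept uniquely mapped reads and ran MACS on every replicate with a control; the versions were not given in the sources used here. Peak scores are MACS scores deposited by the authors, except where the report names tags or positions only. The log2 values are concentrations that the authors made with DiffBind from both replicates, with no scaling between libraries stated for them. The authors' own fold, P value and FDR columns are in the same tables and were not used. MTF2 lists of replicate 1 count positions from 1 and were read so. No read totals were given with the lists, so depth is unknown.

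Overlaps were counted in Python 3.11.15 with numpy 2.4.6, pandas 2.3.3 and scipy 1.17.1 (matplotlib 3.10.9 for figures), over 20163 protein-coding genes of GENCODE release 44 on GRCh37 without the mitochondrial chromosome. The overlap step was tested on simulated data. Where a gene had several regions in a table, the one with the highest mean log2 concentration gave its value. All 9 members were named, other bHLH genes if they had a PHF19 region, and nearest patterns as described. Members and lists were chosen with earlier results of these data known. No test was run, since the tables hold no value per replicate and genes are not replicates. Alternatives were other intervals and overlap rules, a score of at least 100, either replicate or 1 replicate left out, all annotated genes, other rules for genes with several regions, median-centring and a low-value filter, and, added after seeing the data, the canonical transcript as the gene.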

Additional observations from a re-analysis of the deposited data

How the results depend on the processing

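Counts of members in both replicate lists depended on the replicate and on the overlap rule. With 1 replicate left out they ran from 4 to 8 for PHF19, from 5 to 8 for EZH2 and from 1 to 2 for SUZ12 in shCTR, and from 6 to 9 for H3K27me3 in shPHF19L#4. A peak in either replicate gave 8, 8 and 2 for the first 3, against 4749, 1210 and 364 of the 20163 protein-coding genes. With the midpoint of the peak inside the interval the counts were 2 for PHF19, 3 for EZH2 and 4 for H3K27me3 in shCTR, with at least 50% covered 3 for EZH2, and with a MACS score of at least 100, 3 for EZH2 and 0 for SUZ12. The cause of this dependence was not tested. Shares of all genes under the midpoint, coverage and score rules are not given here, so these counts have no background beside them. The intervals at the start site only, 10 kb on each side of the gene and of the canonical transcript (added after seeing the data) moved no count by over 1.5 times. Over all 64449 annotated genes the background was lower, at 1.74% for PHF19 and 7.45% for H3K27me3 in both shCTR replicates.

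Subtracting the median of all listed regions turned the median change to -0.11 for EZH2, -0.08 for SUZ12 and -0.08 for MTF2, and left 0.11 for H3K27me3 (ATOH1). By gene, the EZH2 change turned to -0.19 at NEUROG2, -0.23 at NEUROG3, -0.02 at NEUROD1, -0.01 at NEUROD2, -0.40 at OLIG1 and -0.26 at OLIG2. The SUZ12 change turned to -0.13 at NEUROG1, -0.01 at NEUROG2, -0.04 at NEUROD2 and -0.44 at OLIG1. The MTF2 change turned to -0.09 at NEUROG1, -0.13 at NEUROG2, -0.12 at NEUROG3, -0.36 at OLIG1 and -0.07 at OLIG2. This follows from the subtraction, since nearly every listed region was higher. The mean over all regions of a gene gave a change of 1.44 at ATOH1 for H3K27me3 and levels per kb of 4.03 at ATOH1 for H3K27me3 and 4.92 at NEUROD1 for MTF2. The low-value filter gave a median change of 0.92 for SUZ12, without NEUROG1, for which no SUZ12 value remained. It also left no H3K27me3 value for ATOH1, so the H3K27me3 change of this list was lost under that filter. Of 238 values under an alternative, 18 changed sign, all under median-centring.

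No paired analysis was possible because the results come from no test and the tables hold no value per replicate; the authors' own P values, which were blocked by replicate for PHF19 against input, were not used. The data are 1 cell line with 1 hairpin and 2 replicates, the depth of the libraries is unknown, tables list only regions under a threshold, and the scaling between conditions is not stated, so an equal shift of all regions and a change at these genes cannot be told apart.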
